A study of Rattus norvegicus with 12 samples.

Results

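The genes described are 50 integrin subunits and proteins of the focal adhesion, listed by name in 6 roles: alpha subunits, beta subunits, proteins that link integrins to actin, LIM and scaffold proteins, kinases and adaptors, and syndecans. Of the 50, 47 had at least 1 probe set on the array whose annotation named that gene alone, which gave 86 of the 31042 probe sets tested and 47 of 14217 genes. Itga2, Itga4 and Itgb8 had no such probe set and were not analysed here. For 24 genes there was more than 1 probe set (63 in all), and all of them are shown, because those of one gene did not always move alike. The other 23 genes had 1 each.

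The arrays (Affymetrix Rat Genome 230 2.0) compared Colony cells with A16 cells, both derived from F111, an established line of Fischer rat fibroblasts. Colony cells descended from cells that had survived 16 h without adhesion (NA16). They had grown for 7 days in soft agar, were then taken out of it, and were given a short time on a dish before those that had attached were processed. A16 cells had adhered to plastic for 16 h. The paper also reports a chromosome translocation in all colony cells karyotyped that was seen in only a minority of adherent cells. The groups thus differed in survival, growth in agar, time on plastic, collection and karyotype together, and the effects of these cannot be told apart. Each group had 3 arrays, biological replicate 1, a second technical array and biological replicate 2, and RMA intensities are given below in that order. The labels do not say which culture the technical array repeats. It was taken as a repeat of biological replicate 1, whose title names technical replicate 1, and averaged with it, which leaves n = 2 per group. In A16 the SD of its log2 difference from replicate 1 was 0.174 and from replicate 2 0.305. In Colony these were 0.225 and 0.243, nearly alike. In the labels of Colony replicate 2, the source field spoke of a tumour and the rest of Colony cells. It was kept as Colony.

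Integrins are receptors made of an alpha and a beta subunit that span the membrane. Outside the cell they bind matrix proteins such as fibronectin, collagen and laminin, and inside it their tails bind talin and kindlin, which switch them on and, with vinculin, alpha-actinin and filamin, tie them to actin filaments. At these sites, the focal adhesions, FAK and Src phosphorylate adaptors such as paxillin and the Cas proteins, and in fibroblasts the strength of the adhesion follows the tension of the stress fibres that end there. Integrin alpha6beta4 differs from the others in that it holds intermediate filaments instead of actin, in the hemidesmosomes of epithelium.

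Median RMA intensity was 97.6 to 99.4 on the Colony arrays and 99.3 to 100.9 on the A16 arrays. The fibroblast markers summed to 56137 to 60766 on Colony arrays and 73019 to 83763 on A16 arrays. Vim was among the brightest probe sets in both groups, and Dcn, Lum and Fap were dim in both. Of the 11, 3 were called lower (27.3%, against 4.75% of all genes), namely Col1a1, Col3a1 and Thy1. Under 2-fold but at an adjusted p under 0.05 (limma), Pdgfra was higher (log2 FC 0.55) and Col1a2 (-0.61) and Lum (-0.78) were lower. Of 7 epithelial markers, Krt8 was higher in Colony cells (log2 FC 2.13). Cdh1 was dim and higher but under 2-fold (log2 FC 0.74, limma adjusted p = 0.00979). Epcam, Krt18 and Krt19 lay between 21.9 and 37.2 on all 6 arrays (sums of the 7 markers 3186 to 3937 and 935 to 1042). Of 10 leukocyte and macrophage markers, Csf1r was higher (log2 FC 4.01) Cd14 was lower but under 2-fold (log2 FC -0.56, adjusted p = 0.0366), and Ptprc, Cd53 and Tyrobp were dim in both groups (sums 1726 to 1818 and 1319 to 1510). The 4 measured endothelial markers summed to 143 to 176 on Colony arrays and 134 to 150 on A16 arrays. The part of these cell type markers in the results was not tested. The array's own control probe sets differed with the group. The ratio of the 3′ over the 5′ beta-actin probe set was 4.28, 4.17 and 3.76 on Colony arrays, against 1.39, 1.43 and 1.39 on A16 arrays. That of GAPDH was 1.73, 1.39 and 1.11 on Colony arrays, against 0.975, 0.949 and 1.02 on A16 arrays, and that of hexokinase was 7.89, 5.30 and 4.82 on Colony arrays, against 2.23, 2.64 and 1.74 on A16 arrays. The 3′ probe sets of the 4 poly-A spike-ins lay between 25.4 and 61.0 on Colony arrays and between 84.8 and 1577 on A16 arrays. These control signals moved with the group on every array, and what part they had in the results below was not tested.

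**Figure D1:**
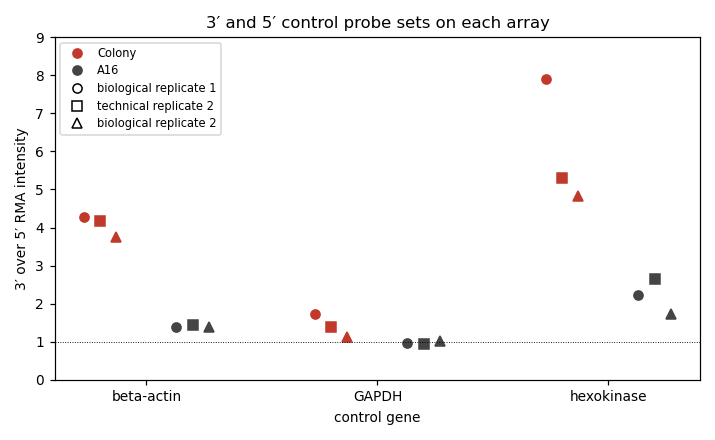
The 3′ over 5′ ratio of RMA intensity (vertical axis) of the beta-actin, GAPDH and hexokinase control probe sets, 1 point per array, Colony in red at left and A16 in grey at right, with marker shapes for the replicates. On all 3 controls every Colony array lies above every A16 array, from 3.76 to 4.28 against 1.39 to 1.43 for beta-actin.

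In Colony cells a few integrin subunits were called higher by at least 1 probe set, first of all Itgb4. The genes called lower by at least 1 probe set were mostly proteins on the inner side of the adhesion. Of the integrins, Itga6 was called by 1 of its 4 probe sets. Itga3 and Itgb5 fell under the fold threshold without Colony replicate 1 (log2 FC 0.93 and 0.98). A probe set was called at an adjusted p under 0.05 (limma, Benjamini-Hochberg over all 31042) and a fold change over 2. Of the 86 probe sets, 6 were called higher (6.98%), where 4.0% of all tested were, and 16 were called lower (18.6%), where 5.81% of all tested were. Their median log2 FC, Colony minus A16, was -0.16 against 0.05 over all probe sets. Another 13 of the 86 had an adjusted p under 0.05 with a fold change under 2, of which 7 were higher and 6 lower. Over all 31042 probe sets 4011 did, of which 2303 were higher and 1708 lower. Read by the brightest probe set of each gene, 4 of 47 genes were called higher (8.51%, against 4.36% of all genes) and 5 lower (10.6%, against 4.75% of all genes), and the median log2 FC was -0.02 against 0.05 over all genes. Of the 16 probe sets called lower, 5 were the brightest of their gene and 11 were dimmer ones. In these bulk samples fewer cells with a transcript and less of it per cell cannot be told apart.

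**Figure D2:**
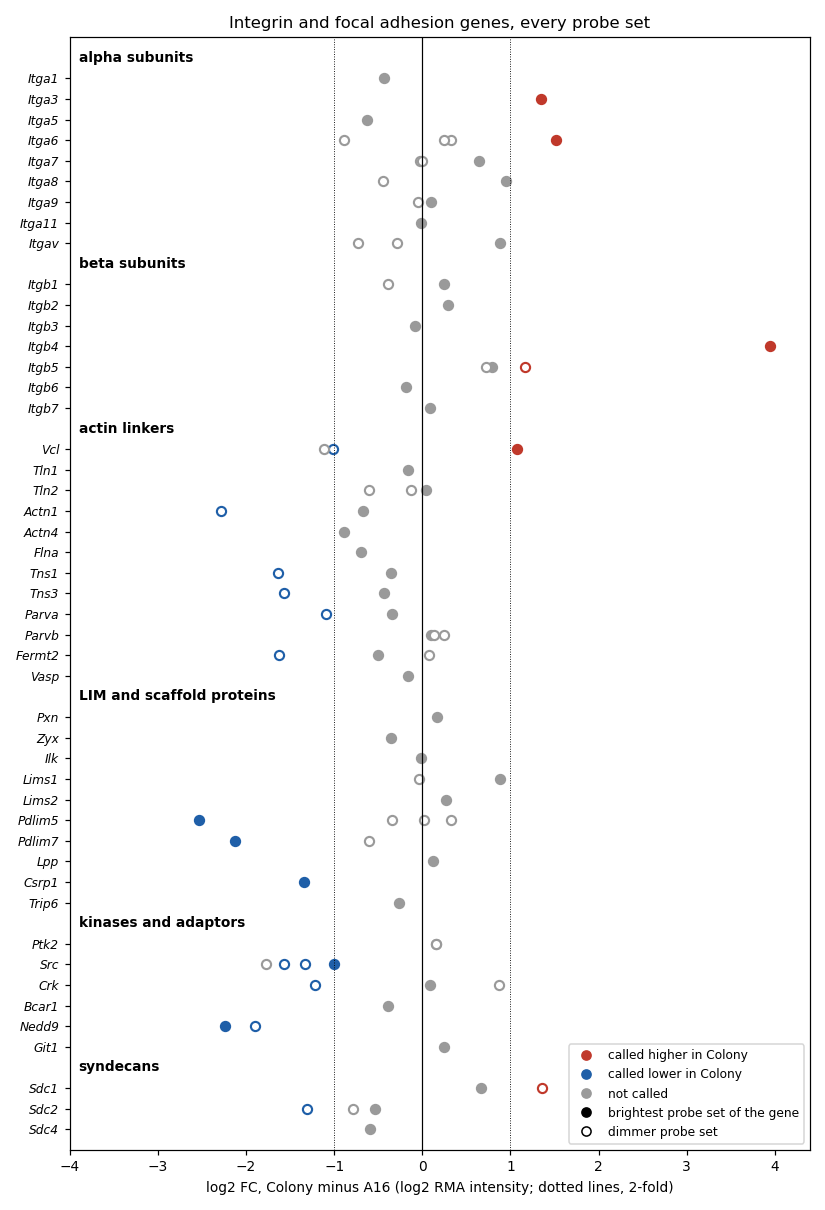
The log2 FC (Colony minus A16) of each of the 86 probe sets, by gene and role, with filled points for the brightest probe set of a gene and open points for dimmer ones, red for called higher, blue for called lower and grey for not called. The red points are Itgb4 at 3.95 and 5 others between 1.07 and 1.52, and the blue points run from -1.00 to -2.53, all of them below the integrin rows.

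Among the integrins, Itgb4 and Itga3 were called higher in Colony cells by their single probe sets, and Itga6 and Itgb5 by 1 of their probe sets each. Of 18 probe sets of alpha subunits 2 were called higher and 0 lower, and of 10 of beta subunits 2 were called higher and 0 lower. Of all probe sets 4.0% were called higher and 5.81% lower, and in sets this small 0 lower cannot be told from that share. Itgb4, the partner of alpha6 in hemidesmosomes, had RMA intensities of 4789, 3284 and 2300 on Colony arrays, against 197, 154 and 219 on A16 arrays. The lowest Colony array was far above the highest A16 array, and the brightness of the probe set was at percentile 96.9 of all probe sets in Colony cells and 60.0 in A16 cells. Its FC value was 15.4 (log2 FC 3.95, SE 0.26, n = 2 per group, adjusted p = 0.000153), the highest of all 86 probe sets, and it lay between 3.56 and 4.34 on the log2 scale when any replicate was left out. Of the epithelial markers, Krt8 was called with it, Cdh1 was at 0.74, and the others had log2 FC between -0.13 and 0.09.

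Itga6, which forms a laminin receptor with beta4 or beta1, was called higher by its brightest probe set alone. That probe set (1383240_at) had intensities of 3891, 4566 and 4573 on Colony arrays, against 1763, 1668 and 1370 on A16 arrays. The arrays of a group lay close together and the groups did not overlap (log2 FC 1.52, SE 0.16, adjusted p = 0.000949). The other 3 probe sets of Itga6 had log2 FC of 0.33, -0.89 and 0.24, and none was called. Without A16 replicate 1 the probe set 1371186_at was called lower instead (log2 FC -1.33), so the 4 probe sets give no single direction for the gene.

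Itga3, which pairs with beta1 to bind laminin, had intensities of 7696, 5335 and 3592 on Colony arrays, against 1609, 1547 and 2244 on A16 arrays. Colony replicate 2 was the lowest of its group and A16 replicate 2 the highest of its own, yet the groups did not overlap. The log2 FC was 1.35 (SE 0.29, adjusted p = 0.0177), and without Colony replicate 1 it was 0.93 and under the fold threshold. Itgb5, a partner of alphav in vitronectin receptors, had 3 probe sets that were all higher. The called one (1370802_at) had intensities of 1324, 1293 and 1005 on Colony arrays, against 492, 560 and 493 on A16 arrays. These groups were well apart (log2 FC 1.17, SE 0.16, adjusted p = 0.00327), though without Colony replicate 1 the value was 0.98. Its brightest and dimmest probe sets had log2 FC of 0.79 and 0.72, with adjusted p of 0.00689 and 0.0210.

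The remaining integrin subunits were not called. Itgb1, the beta subunit shared by most matrix receptors, had intensities of 7545, 7577 and 7300 on Colony arrays, against 6120, 6294 and 6246 on A16 arrays, by its brighter probe set. These did not overlap, but the difference was small (log2 FC 0.25, 95% interval -0.05 to 0.56, adjusted p = 0.213), and its other probe set was at -0.39. Itga5, the alpha subunit of the main fibronectin receptor, had 469, 258 and 233 on Colony arrays, against 277, 374 and 602 on A16 arrays. The groups overlapped (log2 FC -0.63, adjusted p = 0.223), and without A16 replicate 1 it was called lower (-1.08). With the technical arrays averaged with replicate 2 instead, it was at -0.10. Itgav, which binds vitronectin and other ligands with several beta subunits, had log2 FC of 0.88, -0.29 and -0.73 on its 3 probe sets from bright to dim. None was called, and the ends of this range crossed the threshold in opposite directions without A16 replicate 1, at 1.12 and -1.12. Its brightest probe set was also called without Colony replicate 2 (1.29).

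Itga8, a receptor subunit for ligands such as nephronectin, had an adjusted p under 0.05 in both directions. The brighter probe set had 409, 486 and 551 on Colony arrays, against 259, 279 and 246 on A16 arrays, and the dimmer lay between 73.4 and 88.1 on Colony arrays, against 102 to 112 on A16 arrays. The log2 FC was 0.95 (adjusted p = 0.00589) for the brighter and -0.45 (adjusted p = 0.0467) for the dimmer, and the brighter was called without A16 replicate 1 (1.01) or without Colony replicate 1 (1.10). Itga7, a laminin-binding subunit best known from muscle, was higher by its brightest probe set (log2 FC 0.64, adjusted p = 0.0318) and at -0.03 and 0.00 by the others. The collagen-binding Itga1 and Itga11 were at -0.44 and -0.01, and Itga9, which binds tenascin, was at 0.10 and -0.05. Among the beta subunits, Itgb3, known from platelets and from vitronectin receptors, was at -0.08 and Itgb6, an epithelial subunit, at -0.19. The leukocyte subunits Itgb2 and Itgb7 were at 0.29 and 0.09. Itga11, Itgb3 and Itgb6 were dim, with no array above 31.6.

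**Figure D3:**
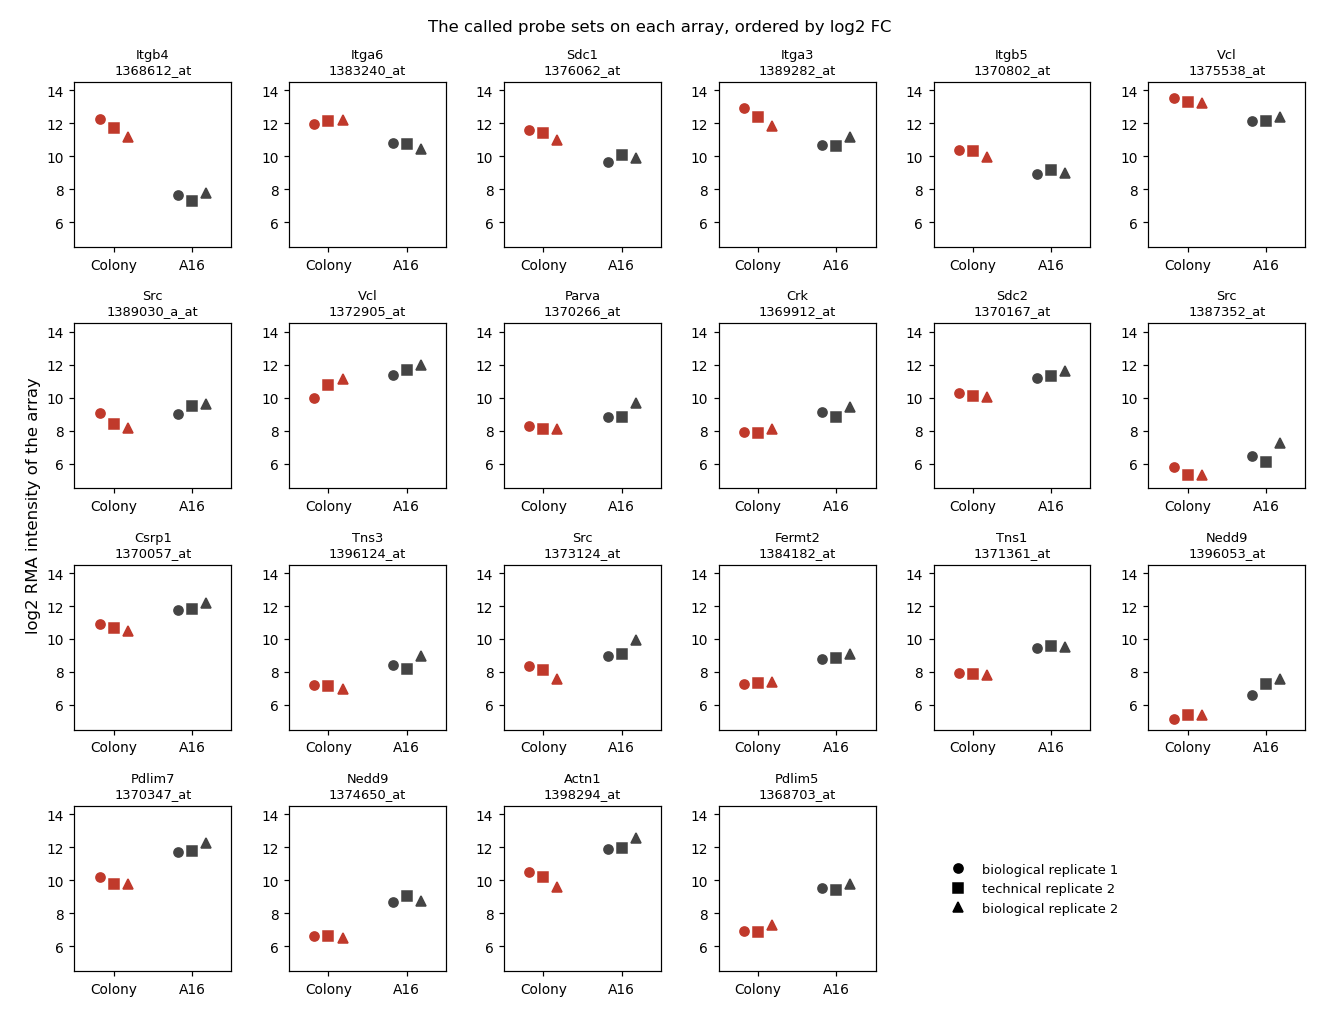
The log2 RMA intensity (vertical axis, the same range in each panel) of the 22 called probe sets on each array, ordered by log2 FC, with Colony arrays in red at left and A16 arrays in grey at right and a marker shape for each replicate. The groups are separate in every panel but that of the Src probe set 1389030_a_at. A call made on these same arrays favours separate groups, so the separation adds no support to the calls.

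Among the proteins that link integrins to actin, 6 of 24 probe sets were called lower (25.0%, against 5.81% of all). Only 1 was called higher (4.17%, against 4.0%), near the share of all probe sets. None of the 12 genes was called lower by its brightest probe set, where 4.75% of all genes were. Actn1, the alpha-actinin that crosslinks the actin filaments of stress fibres, had intensities of 1442, 1188 and 767 on Colony arrays, against 3891, 4077 and 6050 on A16 arrays, by the probe set 1398294_at. All Colony arrays were below all A16 arrays (log2 FC -2.29, SE 0.29, adjusted p = 0.00230). Its brighter probe set had 5117, 5207 and 4693 on Colony arrays, against 7921, 7902 and 7755 on A16 arrays, and a log2 FC of -0.67 (adjusted p = 0.0118). Both were thus lower, by unequal amounts: the difference between them was -1.62 (SE 0.30, adjusted p = 0.00845).

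The tensins, which bind the tails of beta subunits and actin, were lower by 1 of their 2 probe sets each. Tns1 had 244, 236 and 230 on Colony arrays, against 705, 759 and 731 on A16 arrays, by the probe set 1371361_at. This was among the tightest separations (log2 FC -1.64, SE 0.13, adjusted p = 0.000280), while the brighter probe set was at -0.36 (adjusted p = 0.174). Tns3 had 147, 142 and 125 on Colony arrays, against 339, 287 and 508 on A16 arrays, by the probe set 1396124_at (log2 FC -1.57, SE 0.24, adjusted p = 0.00432). Its brighter probe set was at -0.44 (adjusted p = 0.0506), just above the threshold for p.

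Fermt2, kindlin-2, which activates integrins with talin, had 154, 158 and 165 on Colony arrays, against 439, 455 and 554 on A16 arrays, by the probe set 1384182_at. The groups were far apart beside their spread (log2 FC -1.63, SE 0.15, adjusted p = 0.000627). The brightest probe set was at -0.50 (adjusted p = 0.0606) and the dimmest at 0.08. Parva, the parvin that joins ILK to actin, had 308, 278 and 272 on Colony arrays, against 451, 450 and 802 on A16 arrays, by the probe set 1370266_at. Here A16 replicate 2 set the size of the difference (log2 FC -1.09, SE 0.26, adjusted p = 0.0248). The log2 FC was -0.68 without A16 replicate 2, and the adjusted p was 0.0631 and 0.0885 without Colony replicate 1 or 2. The brighter Parva probe set was at -0.34.

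Vcl, vinculin, which binds talin and actin in adhesions under load, was the 1 gene of the 47 called in both directions. Its brightest probe set (1375538_at) had 11690, 10148 and 9494 on Colony arrays, against 4442, 4565 and 5227 on A16 arrays. The next (1372905_at) had 1005, 1729 and 2268 on Colony arrays, against 2696, 3247 and 4078 on A16 arrays, and the dimmest (1398476_at) had 179, 183 and 391 on Colony arrays, against 489, 487 and 688 on A16 arrays. The 3 probe sets did not point in one direction: log2 FC was 1.07 (SE 0.15, adjusted p = 0.00317), -1.01 (SE 0.28, adjusted p = 0.0419) and -1.12 (SE 0.35, adjusted p = 0.0654). Without Colony replicate 1 the brightest was at 0.97 and the second at -0.61, and without A16 replicate 1 the brightest was at 0.96. The second was at -0.78 without A16 replicate 2. The dimmest was called lower without A16 replicate 1 (-1.37) or without Colony replicate 2 (-1.68), and also with the replicate block (adjusted p = 0.00385), a random block (0.0154), PLIER (0.0482) and other settings. With PLIER the second was not called (adjusted p = 0.0652).

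The other linkers were not called. Flna, filamin A, a crosslinker of actin that binds beta tails, had 4966, 4327 and 3550 on Colony arrays, against 5424, 6770 and 7119 on A16 arrays, lower in all Colony arrays but under 2-fold (log2 FC -0.70, adjusted p = 0.0304). Actn4, the other alpha-actinin here, was at -0.89 with overlapping groups (adjusted p = 0.0688), and was called without A16 replicate 1 (-1.31). The talins, which carry the first link between integrin and actin, were at -0.16 for Tln1 and at 0.04, -0.13 and -0.61 for Tln2. Vasp, which promotes the growth of actin filaments, was at -0.16, and Parvb lay between 0.10 and 0.25 on 3 dim probe sets.

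Among the LIM and scaffold proteins, 3 LIM proteins that sit on stress fibres were lower by their brightest probe sets, and the other 7 genes were not called by any. Pdlim5, a PDZ-LIM protein that binds alpha-actinin, had 122, 115 and 157 on Colony arrays, against 750, 687 and 869 on A16 arrays. It had the most negative log2 FC of the 86 probe sets (-2.53, SE 0.18, adjusted p = 0.000209), and its brightness was at percentile 55.1 of all probe sets in Colony cells and 82.7 in A16 cells. Its other 3 probe sets were dim, with no array above 54.3, and had log2 FC of 0.02, -0.34 and 0.33.

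Pdlim7, or Enigma, of the same family, had 1179, 892 and 874 on Colony arrays, against 3383, 3463 and 5006 on A16 arrays. All Colony arrays were below all A16 arrays (log2 FC -2.13, SE 0.20, adjusted p = 0.000713), and the dimmer probe set was lower too, at -0.61 (adjusted p = 0.0321). Csrp1, a small LIM protein that binds alpha-actinin and zyxin, had 1904, 1602 and 1459 on Colony arrays, against 3447, 3559 and 4693 on A16 arrays (log2 FC -1.34, SE 0.18, adjusted p = 0.00298). In total, 3 of 15 probe sets of this role were called lower, where 5.81% of all probe sets were. None was called higher, where 4.0% of all were, and with 15 probe sets this cannot be told from that share.

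In contrast, Ilk, the pseudokinase at the centre of the ILK, PINCH and parvin complex, had 4530, 4466 and 4718 on Colony arrays, against 4964, 4926 and 4428 on A16 arrays. The groups overlapped and the difference was near 0 (log2 FC -0.02, 95% interval -0.34 to 0.30). Pxn, paxillin, a docking protein for FAK and its partners, was at 0.17 (95% interval -0.14 to 0.48). Zyx, zyxin, a LIM protein recruited to adhesions under tension, had 3689, 2568 and 1832 on Colony arrays, against 2222, 2664 and 3795 on A16 arrays, with Colony replicate 2 below the A16 arrays and the other Colony arrays among them (log2 FC -0.36, 95% interval -1.06 to 0.35). Its relatives Trip6 and Lpp were at -0.26 and 0.12. Lims1, PINCH-1, had 3811, 4206 and 5350 on Colony arrays, against 2701, 2644 and 2377 on A16 arrays. It was higher on all Colony arrays but under 2-fold (log2 FC 0.88, adjusted p = 0.0129), and was called without Colony replicate 1 (1.09). Its dimmer probe set was at -0.04 and Lims2, PINCH-2, at 0.27.

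The kinases and adaptors had 6 of 13 probe sets, of 3 genes, called lower (46.2%, against 5.81% of all probe sets) and 0 higher (against 4.0%). Src gave 3 of the 6, Nedd9 2 and Crk 1, and probe sets of one gene are not independent. By the brightest probe set, 2 of 6 genes were called lower (33.3%, against 4.75% of all genes). Nedd9, an adaptor of the Cas family that FAK and Src phosphorylate, was lower by both probe sets. The brighter (1374650_at) had 98.1, 99.2 and 90.5 on Colony arrays, against 413, 543 and 423 on A16 arrays. The dimmer (1396053_at) had 36.2, 42.1 and 42.7 on Colony arrays, against 98.0, 155 and 189 on A16 arrays. Both were far apart between groups, with log2 FC of -2.24 (SE 0.14, adjusted p = 0.000106) and -1.90 (SE 0.21, adjusted p = 0.00130), and the difference between the probe sets was 0.34 (adjusted p = 0.410). Bcar1, p130Cas, the founding member of that family, was at -0.39 (adjusted p = 0.0999).

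Src, the tyrosine kinase that partners FAK, had a negative log2 FC on all 4 probe sets, of which 3 were called. The brightest (1389030_a_at) had 524, 336 and 284 on Colony arrays, against 511, 706 and 797 on A16 arrays. Biological replicate 1 was alike in both groups, and the arrays overlapped though the probe set was called (log2 FC -1.00, SE 0.23, adjusted p = 0.0204). It was at -0.62 and not called with the technical arrays averaged with replicate 2. The second (1373124_at) had 330, 283 and 187 on Colony arrays, against 499, 552 and 962 on A16 arrays (log2 FC -1.57, SE 0.33, adjusted p = 0.0158).
The dimmest (1387352_at) had 54.4, 39.1 and 39.3 on Colony arrays, against 87.0, 67.2 and 149 on A16 arrays (log2 FC -1.33, SE 0.30, adjusted p = 0.0198). The third (1368830_at) was at -1.77 (SE 0.53, adjusted p = 0.0534), with A16 replicate 2 at 471 and the other 2 A16 arrays at 144 and 116. In each of the 4 probe sets A16 replicate 2 was the highest array. Without it, log2 FC was -0.80, -0.84 and -0.84 for the brightest, the third and the dimmest, all under the fold threshold. Without Colony replicate 2 the adjusted p of the 3 called probe sets was 0.0621 to 0.0791, and without A16 replicate 1 the third was called (-2.71). The third was also called with the replicate block (adjusted p = 0.0133), a random block (0.0259) and the 6 arrays kept separate (0.0329). With PLIER the brightest and the dimmest were not called (adjusted p = 0.103 and 0.0889), which left 1 of the 4.

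Crk, an adaptor that binds phosphorylated paxillin and Cas, gave a different value on each probe set. The dimmest (1369912_at) had 238, 233 and 278 on Colony arrays, against 567, 456 and 697 on A16 arrays (log2 FC -1.22, SE 0.19, adjusted p = 0.00473), and was at -0.99 without A16 replicate 2. The middle one (1374536_at) had 1097, 1266 and 1320 on Colony arrays, against 720, 747 and 638 on A16 arrays (log2 FC 0.87, adjusted p = 0.00632). The dimmest and the middle one thus moved in opposite directions, and the brightest was at 0.09. Ptk2, the focal adhesion kinase FAK, had 2209, 2169 and 1911 on Colony arrays, against 1680, 1722 and 1969 on A16 arrays. These overlapped (log2 FC 0.16, 95% interval -0.19 to 0.51). Git1, a scaffold that binds paxillin, was at 0.25.

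The syndecans are heparan sulphate proteoglycans that bind matrix beside the integrins. Sdc1, the syndecan most abundant in epithelium, had 3086, 2750 and 2011 on Colony arrays, against 811, 1055 and 963 on A16 arrays, by the probe set 1376062_at. It was higher (log2 FC 1.36, SE 0.19, adjusted p = 0.00340), as was its brighter probe set with a smaller difference (log2 FC 0.67, adjusted p = 0.0100). Sdc2, which is common in mesenchymal cells, had 1249, 1092 and 1063 on Colony arrays, against 2326, 2498 and 3162 on A16 arrays, by the probe set 1370167_at. All 3 of its probe sets were lower, at -1.31 (SE 0.17, adjusted p = 0.00232), -0.79 (adjusted p = 0.0174) and -0.54 (adjusted p = 0.0318). Sdc4, the syndecan of focal adhesions, had 5193, 4241 and 2821 on Colony arrays, against 4798, 5334 and 5939 on A16 arrays, which overlapped (log2 FC -0.59, adjusted p = 0.141).

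Probe sets of one gene disagreed often. Of the 24 genes with more than 1 probe set, 11 had log2 FC that lay over 1 apart (45.8%), where 1207 of 4525 genes did (26.7%). The 11 were Itga6, Itga8, Itgav, Vcl, Actn1, Tns1, Tns3, Fermt2, Pdlim5, Pdlim7 and Crk. When each dimmer probe set was tested against the brightest of its gene, 16 of 39 pairs were called different (41.0%), where 19.4% of 6609 pairs over all genes were. The dimmer probe set was the more negative in 28 of the 39 pairs (71.8%, median difference -0.64), and over all genes in 63.4% of pairs (median difference -0.19). Among the pairs called over all genes it was the more negative in 80.9%, and among the 16 called here in 12 (75.0%). The other 4 of the 16 were the dim probe sets of Pdlim5 and Pdlim7. The largest gaps were those of Pdlim5 (2.86), Itga6 (-2.41) and Vcl (-2.19), where the sign is dimmer minus brightest. Which part of its transcript each probe set reads was not analysed here, and so the part of the 3′ over 5′ difference between the groups in these gaps was not tested. Itga3, Itgb4 and Csrp1 were called on a single probe set and have no second one to set beside it. Among the called genes, Nedd9, Src, Itgb5, Parva, Sdc1 and Sdc2 had 2 or more probe sets that were within 1 of each other and had log2 FC of one sign.

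**Figure D4:**
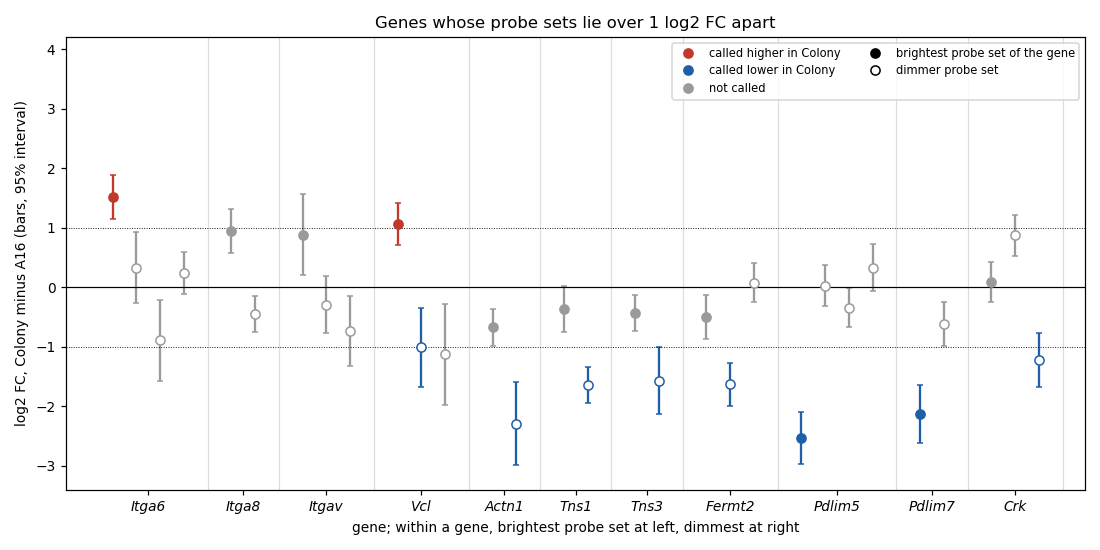
The log2 FC (Colony minus A16, with its 95% interval) of every probe set of the 11 genes whose probe sets lay over 1 apart, with the brightest at the left within each gene and colours for the calls. Vcl has its brightest probe set at 1.07 and the other 2 at -1.01 and -1.12, and Actn1, Tns1, Tns3 and Fermt2 are called lower by a dimmer probe set and not by the brightest.

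Of 102 other measured genes of adhesion, read by their brightest probe set, 5 were called higher (4.9%, against 4.36% of all genes) and 18 lower (17.6%, against 4.75%), with a median log2 FC of -0.05 against 0.05. Among 22 matrix ligands 10 were lower (45.5%, against 4.75% of all genes). The laminin chain Lama4 (-3.55), the tenascin Tnc (-2.73), the collagen chain Col1a1 (-2.72) and the fibronectin Fn1 (-2.15) were the farthest. Only 1 was higher (4.55%, near the 4.36% of all genes). This was Spp1, osteopontin, a ligand of alphav receptors, with 752, 881 and 1297 on Colony arrays, against 80.8, 102 and 85.8 on A16 arrays (log2 FC 3.54, adjusted p = 0.000121). Of the laminin chains that alpha6beta4 binds, Lama3 was at -0.05 and Lama5 at 0.52, neither called, and Lamb3 was lower (-2.08).

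Of 31 other focal adhesion proteins 6 were lower (19.4%, against 4.75% of all genes) and 1 higher (3.23%, against 4.36%). Those farthest down were Palld, palladin of stress fibres (-3.57), the PDZ-LIM proteins Pdlim2 (-3.11) and Pdlim4 (-2.95), and Tgfb1i1, or Hic-5, a relative of paxillin (-2.24, and -4.16 with PLIER). Palld had 77.9, 158 and 117 on Colony arrays, against 1521, 1588 and 1188 on A16 arrays. With Pdlim5 and Pdlim7 this made 4 of 6 measured Pdlim genes called lower by their brightest probe set, where 4.75% of all genes were. The Pdlim genes were not a list set in advance. Pdlim1 (-0.28, adjusted p = 0.235) and Pdlim3 (-0.05, adjusted p = 0.877) were not called. The 1 gene higher was Rsu1, which binds PINCH-1 (1.43), and it was at 0.99 without Colony replicate 1.
Of 30 signalling genes 2 were higher, the Src family kinase Fyn (2.06) and the adaptor Nck2 (1.15). Lower were 2, the kinase Pak1 (-1.89) and Dock1, which activates Rac with Crk (-1.28). Either count was 6.67% of the 30, near the 4.36% and 4.75% of all genes. Fyn had 493, 578 and 473 on Colony arrays, against 106, 121 and 128 on A16 arrays, opposite in direction to Src. Of 13 membrane partners of integrins only the tetraspanin Cd81 was called, and it was higher (1.34). That was 7.69% of the list, against 4.36% of all genes. None of 6 other integrin subunits was called, and their log2 FC lay between -0.08 and 0.59. By limma, Itgax (adjusted p = 0.0271) was the 1 of the 6 with an adjusted p under 0.05.

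**Figure D5:**
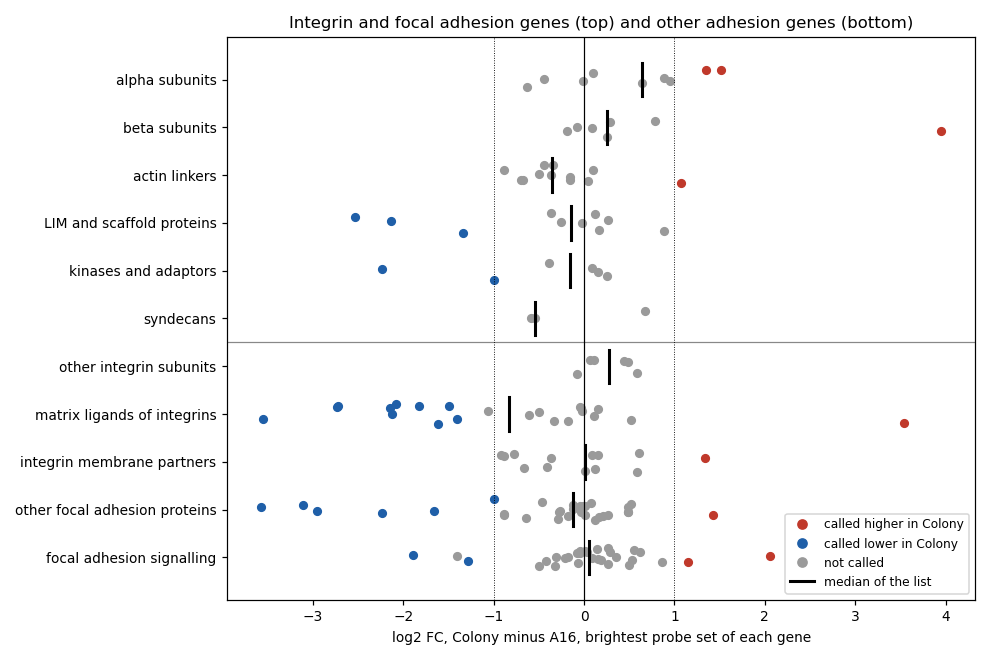
The log2 FC (Colony minus A16) of the brightest probe set of each gene, for the 6 roles above the grey line and 5 lists of other adhesion genes below it, with red for called higher, blue for called lower and a black bar at each list's median. The medians are 0.64 for alpha subunits (near 0 over all 18 of their probe sets) and -0.84 for matrix ligands, and blue points are absent from both rows of integrin subunits and from the linkers.

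Promoters of 35 of the 50 genes were in the RefSeq table used (GRCr8, 250 bases before to 50 after each start). The windows were searched on both strands for the CArG box, which serum response factor binds in genes of the actin cytoskeleton, and for GGAATG, the core that TEAD factors bind with YAP. A CArG box was found in 2 of 35 (5.71%, Itgb6 and Trip6), against 1.64% of 27457 promoters. The Vcl window begins with cttataagg, which would make a CArG box if the base before it were c. That base lies outside the window and was not searched. GGAATG was found in 6 of 35 (17.1%, Flna, Itga3, Itgb1, Trip6, Vcl and Zyx), against 13.9% of all promoters. Of these 6, Itga3 was called higher and Vcl in both directions. Of the 3 promoters of genes called only higher, that of Itga3 held GGAATG, and those of Itgb5 and Sdc1 held neither motif. The 8 promoters of genes called only lower (Actn1, Crk, Csrp1, Nedd9, Pdlim5, Pdlim7, Src and Tns3) held neither in this window. Sets this small cannot be told from the share of all promoters. Shown are the 250 bases before the start of the Itga3 gene (chr10:80518902-80519151, minus strand) and of Vcl (chr15:3404801-3405050, minus strand), where capitals mark GGAATG, beginning 122 and 167 bases before the start, and of Pdlim7 (chr17:9129558-9129807, plus strand), a gene called lower with no match and so no capitals. All are written 5′ to 3′ on the strand of the gene, and a match is a description of the letters alone.
Itga3: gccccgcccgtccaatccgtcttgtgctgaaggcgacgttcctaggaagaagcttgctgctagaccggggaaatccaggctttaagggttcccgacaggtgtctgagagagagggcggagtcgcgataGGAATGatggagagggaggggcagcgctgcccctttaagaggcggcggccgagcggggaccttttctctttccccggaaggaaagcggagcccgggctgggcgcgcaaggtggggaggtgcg
Vcl: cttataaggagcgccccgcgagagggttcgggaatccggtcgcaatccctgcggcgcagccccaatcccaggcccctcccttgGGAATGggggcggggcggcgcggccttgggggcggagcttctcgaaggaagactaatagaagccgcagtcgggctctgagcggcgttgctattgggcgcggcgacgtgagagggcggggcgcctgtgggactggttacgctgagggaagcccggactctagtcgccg
Pdlim7: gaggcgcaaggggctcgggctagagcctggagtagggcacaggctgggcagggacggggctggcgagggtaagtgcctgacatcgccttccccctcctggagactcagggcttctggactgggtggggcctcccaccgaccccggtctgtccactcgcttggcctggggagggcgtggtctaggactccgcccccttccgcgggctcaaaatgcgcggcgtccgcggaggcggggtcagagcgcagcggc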

How the data were processed

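RNA of Colony and A16 cells was hybridised to 6 arrays. The authors scanned them with GeneChip Operating Software 2.1 and summarised probe sets in Avadis by RMA and by PLIER, and the deposited values were intensity values on a linear scale. No detection calls were used. The 57 array controls were left out, log2 was taken, technical replicate 2 was averaged with biological replicate 1 (an assumption, since its label carries no culture number), and Colony was set against A16 with limma 3.58.1 in R 4.3.3 (lmFit, eBayes, prior df 4.757, Benjamini-Hochberg over 31042 probe sets). A log2 FC under 0 means lower in Colony cells. The number of arrays limits the precision. The smallest p an exact permutation of 2 against 2 cultures allows is 0.333. The labels call the replicates biological without naming separate cultures, so p-values measure only the spread between these samples.

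Symbols came from the platform annotation, updated through RefSeq. Of 31042 probe sets 20826 had 1 symbol, 436 several and 9780 none. A gene was read by its probe set with the highest mean log2 intensity. Members with a called probe set, members whose probe sets lay over 1 log2 FC apart, and then all others by role were named, and of each other list up to 4 genes called each way. Genes named outside this rule (Lama3, Lama5, Lamb3, Pdlim1, Pdlim3 and Itgax) were chosen after their values were seen. The members and lists were chosen with earlier results of these data known. Alternatives were PLIER as log2(value + 16), other uses of the technical arrays, a random or replicate block, a filter leaving the 15521 brighter probe sets, scaling on the brightest probe sets, leaving out each replicate, the mean of a gene's probe sets and the methods' t-test. PLIER as log2(value), the crossed block and the tests between probe sets of a gene were added after seeing the data. The fit was tested on simulated data. Same-numbered cultures did not deviate together (correlation -0.148), so no pairing was used. No protein sequences were used here.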

Additional observations from a re-analysis of the deposited data

Results flagged for a closer look

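The control probe sets, which belong to none of the comparisons, differed between the groups. For beta-actin, GAPDH and hexokinase the 3′ over 5′ ratio of each Colony array was above that of each A16 array. The 3′ over 5′ ratio reached 4.28 for beta-actin on the Colony arrays, against at most 1.43 on the A16 arrays. It reached 1.73 for GAPDH on the Colony arrays, against at most 1.02 on the A16 arrays, and 7.89 for hexokinase on the Colony arrays, against at most 2.64 on the A16 arrays. The difference itself was not tested.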

How the results depend on the processing

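Of the 22 called probe sets of the 50 genes, 13 kept their call under each of the 14 limma alternatives in which they were measured (the t-test and the mean over a gene's probe sets are given below and are not among the 14), namely those of Itgb4, Actn1, Tns1, Tns3, Fermt2, Pdlim5, Pdlim7, Csrp1, Nedd9 (both), Sdc2, and the called ones of Itga6 and Sdc1. The filter on dim probe sets removed Nedd9 1396053_at and Src 1387352_at. Under these alternatives no called probe set changed direction. When 1 replicate was left out, the probe sets called higher numbered 5 to 7 and those called lower 11 to 22 (main 6 and 16), the genes called by the brightest probe set 4 to 5 higher and 4 to 7 lower (main 4 and 5), and the other adhesion genes 4 to 5 higher and 17 to 22 lower (main 5 and 18). With 1 culture left in an arm, it was assumed to vary like the other group. With the methods' t-test, unadjusted, 10 of the 86 probe sets were lower and 5 higher. With its Benjamini-Hochberg adjustment there were 0 of each, whereas limma called 16 and 6. With the replicate block 18 probe sets were lower and 6 higher. No call was lost, and Vcl 1398476_at and Src 1368830_at were gained. The same-numbered cultures had a correlation below -0.1, and with the numbers crossed in the block 17 were lower and 6 higher. With PLIER the calls of Vcl 1372905_at (log2 FC -1.08, adjusted p = 0.0652), Src 1389030_a_at (-0.87) and Src 1387352_at (-1.16, adjusted p = 0.0889) were lost. With the technical arrays left out, Vcl 1372905_at (-1.14, adjusted p = 0.100) and Src 1389030_a_at (-0.73) were lost. On 6 separate arrays Src 1389030_a_at (-0.84) and Parva 1370266_at (-0.94) were lost, and with the technical arrays averaged with replicate 2 they were too (-0.62 and -0.84). With the mean of a gene's probe sets 3 of the 47 genes were higher and 7 lower. Scaling on the brightest probe sets moved the median of all probe sets by 0.00703. The intensity values carry no detection call, and the precision at dim probe sets is limited by signal near background, which was not measured here.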
